A study of Mus musculus with 11 samples.

Results

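The tiles described here are 1676 stretches of the mouse autosomes, each 2 kb long, in which the captured signal of 5-hydroxymethylcytosine (5hmC) was at least 2 lower on the log2 scale at day 2 of epiblast-like differentiation than at day 0. They were chosen by that difference. A tile was taken when each of the 3 TET_WT embryonic stem cell libraries at day 0 stood at or above -1 log2 RPKM (reads per kilobase of a tile, relative to the library's read total) and the mean of the 3 TET_WT day 2 libraries lay 2 or more below the day 0 mean. The day 0 condition alone was met by 408106 of the 1231381 autosomal tiles, and the 1676 tiles of loss are 0.411% of those 408106. In the opposite direction, 1394 of the 408106 tiles (0.342%) gained 2 or more. The 408106 tiles are the background for every share below, and the day 0 and day 2 values of TET_WT are given as a description with no test, because they chose the tiles.

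Genomic DNA was captured for 5hmC with a commercial HMCP-seq kit in 11 libraries. TET_WT, the wild-type parent of a Tet1, Tet2 and Tet3 triple knockout, was sampled as embryonic stem cells in 2i/Lif medium (day 0, n = 3) and, once turned into epiblast-like cells (EpiLC), at day 1 (n = 2) and day 2 (n = 3). The other line, DNMT_WT, is the wild-type parent of a Dnmt1, Dnmt3a and Dnmt3b triple knockout and was sampled as EpiLC at day 2 only (n = 3). It has no day 0 library here, so its difference from day 0 crosses from 1 line to the other, and line and day cannot be told apart in it. Each wild type is 1 cell line, the labels do not say whether replicates were separate cultures, and a p-value therefore covers no more than the spread among the libraries at hand. The knockout lines and embryoid bodies were not analysed here. A capture library gives relative signal over a population of cells, so a lower total of 5hmC per cell cannot be seen, and fewer marked cells and less mark per cell cannot be told apart.

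TET dioxygenases make 5hmC by oxidising 5-methylcytosine, the mark that DNMT enzymes write on cytosines that precede a guanine (CG sites). The oxidised base may be diluted at replication, oxidised further and excised, or kept as a stable mark. Embryonic stem cells in 2i/Lif have a sparsely methylated genome. Their conversion to EpiLC, a model of the formative epiblast, brings genome-wide methylation by Dnmt3a and Dnmt3b, and 5hmC is usually found in gene bodies and at enhancers and scarce at active CG-rich promoters.

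Few of the tiles of loss held the start of a gene, and the sequences around those starts show what kind of start it was. An annotated transcription start lay in 17 of the 1676 tiles (1.01%), against 2.74% of the tiles at the day 0 condition and 2.16% of all autosomal tiles. The 17 tiles held 20 promoter windows, of 250 bases before to 50 bases after the start in the RefSeq table for GRCm38.p6. Snrpn and Snurf share the same window and those of Gm36844 nearly coincide, so the 20 are not all separate sequences. These windows held a median of 3 CG pairs (0 to 35), against 6 in the 12805 windows within tiles at the day 0 condition and 7 in all 31396 autosomal windows. Windows with 10 or more CG pairs made up 2 of the 20 (10.0%), against 30.6% and 44.0% of those backgrounds. The motif searched was CG, which reads the same on both strands. Shown are 4 windows, 5′ to 3′ on the strand of the gene and credited to RefSeq, with every CG in capitals. The first is Snrpn, the start of an imprinted splicing-factor gene (chr7:60005150-60005449, minus strand, 7 CG). The next is Dnase2b, which encodes an acid DNase known from the lens (chr3:146615549-146615848, minus strand, 4 CG). Then comes the predicted gene Gm12789, whose tile lay furthest below day 0 of the 17 tiles with a window (chr4:101986590-101986889, plus strand, 2 CG). The last is Cnpy3, a chaperone of Toll-like receptors, as 1 of the 2 CG-rich windows (chr17:46752165-46752464, minus strand, 30 CG).
Snrpn: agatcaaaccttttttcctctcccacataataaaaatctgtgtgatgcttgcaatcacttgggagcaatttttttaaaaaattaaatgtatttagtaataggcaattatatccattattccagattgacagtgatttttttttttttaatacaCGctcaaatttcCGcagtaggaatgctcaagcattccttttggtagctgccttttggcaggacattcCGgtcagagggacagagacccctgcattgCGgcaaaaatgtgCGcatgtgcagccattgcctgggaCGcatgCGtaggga
Dnase2b: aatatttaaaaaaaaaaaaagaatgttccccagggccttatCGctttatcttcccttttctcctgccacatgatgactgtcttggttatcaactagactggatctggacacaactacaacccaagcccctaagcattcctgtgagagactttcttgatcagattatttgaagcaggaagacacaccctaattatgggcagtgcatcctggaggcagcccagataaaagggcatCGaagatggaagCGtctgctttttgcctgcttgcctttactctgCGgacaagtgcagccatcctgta
Gm12789: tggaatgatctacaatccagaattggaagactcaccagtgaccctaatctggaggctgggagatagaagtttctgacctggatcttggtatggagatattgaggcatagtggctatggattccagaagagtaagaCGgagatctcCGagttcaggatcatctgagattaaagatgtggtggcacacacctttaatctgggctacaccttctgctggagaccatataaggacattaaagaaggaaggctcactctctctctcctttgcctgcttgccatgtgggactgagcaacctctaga
Cnpy3: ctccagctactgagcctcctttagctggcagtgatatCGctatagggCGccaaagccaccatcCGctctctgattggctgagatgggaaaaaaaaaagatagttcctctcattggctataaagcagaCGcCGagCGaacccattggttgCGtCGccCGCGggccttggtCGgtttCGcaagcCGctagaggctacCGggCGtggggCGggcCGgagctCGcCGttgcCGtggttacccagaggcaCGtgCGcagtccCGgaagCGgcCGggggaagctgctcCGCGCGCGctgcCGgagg
The start shown for Dnase2b lies inside the annotated span of that gene, and its tile also overlaps the gene Uox. The tiles that hold these 4 starts lay 2.61, 2.74, 3.22 and 2.46 below day 0 at TET_WT day 2, in the order of the sequences. In DNMT_WT at day 2 the same tiles lay 3.56, 2.51, 2.38 and 0.98 below the TET_WT day 0 mean.

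The libraries differed in depth, and depth bounds what a single tile can show. Reads recovered from the deposited values numbered between 7342012 (replicate 2 of day 1) and 51604024 (replicate 1 of day 0). A tile of loss held a median of 51, 28 and 47 reads in the day 0 libraries, 4 and 15 at day 1, 7, 4 and 7 at TET_WT day 2, and 12, 5 and 9 in DNMT_WT. No reads at all were found in 16, 97 and 16 of the 1676 tiles at TET_WT day 2 and in 27, 92 and 70 in DNMT_WT, where the deposited value is that of 0.9 reads, and the size of the difference of such a tile depends on that constant. Day 0 replicate 2 stood apart from its group: 30.2% of all tiles in it held no reads, against 15.6% and 13.1% in replicates 1 and 3, and the median tile held 4 reads, against 13 in each of those. Within the tiles of loss it differed little, with a median of 0.12 log2 RPKM, against 0.20 and 0.14 in replicates 1 and 3, and it was the lowest of the 3 libraries in 578 tiles (34.5%). Because the rule asks all 3 day 0 libraries for signal, leaving replicate 2 out raised the number of tiles that meet the rule to 4789, of which 1399 are among the 1676. Results on position, neighbours, day 1 and DNMT_WT are therefore also given for that larger set.

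At day 2 the tiles of loss lay below the median autosomal tile (-2.17 against -1.88 log2 RPKM). Their summed reads made up 2294, 2413 and 2219 of every 1000000 reads (RPM) at day 0, 1218 and 1182 at day 1, and 551, 435 and 569 at TET_WT day 2, and they made up 640, 657 and 652 in DNMT_WT at day 2. In means these are 2308 ± 97.7 RPM at day 0 (SD, n = 3), 1200 ± 25.8 at day 1 (SD, n = 2), 518 ± 72.3 at TET_WT day 2 and 650 ± 8.68 in DNMT_WT (SD, n = 3 each). No library of one group overlapped another group's range, and the DNMT_WT libraries lay between those of TET_WT day 1 and day 2. Over tiles, the median level was 0.12 log2 RPKM at day 0, -0.73 at day 1 and -2.17 at day 2 of TET_WT, and -1.69 in DNMT_WT. The same medians over all tiles at the day 0 condition were 0.74, 0.74, 0.76 and 0.66, so the tiles of loss started lower than the background and left it at the later times.

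**Figure D1:**
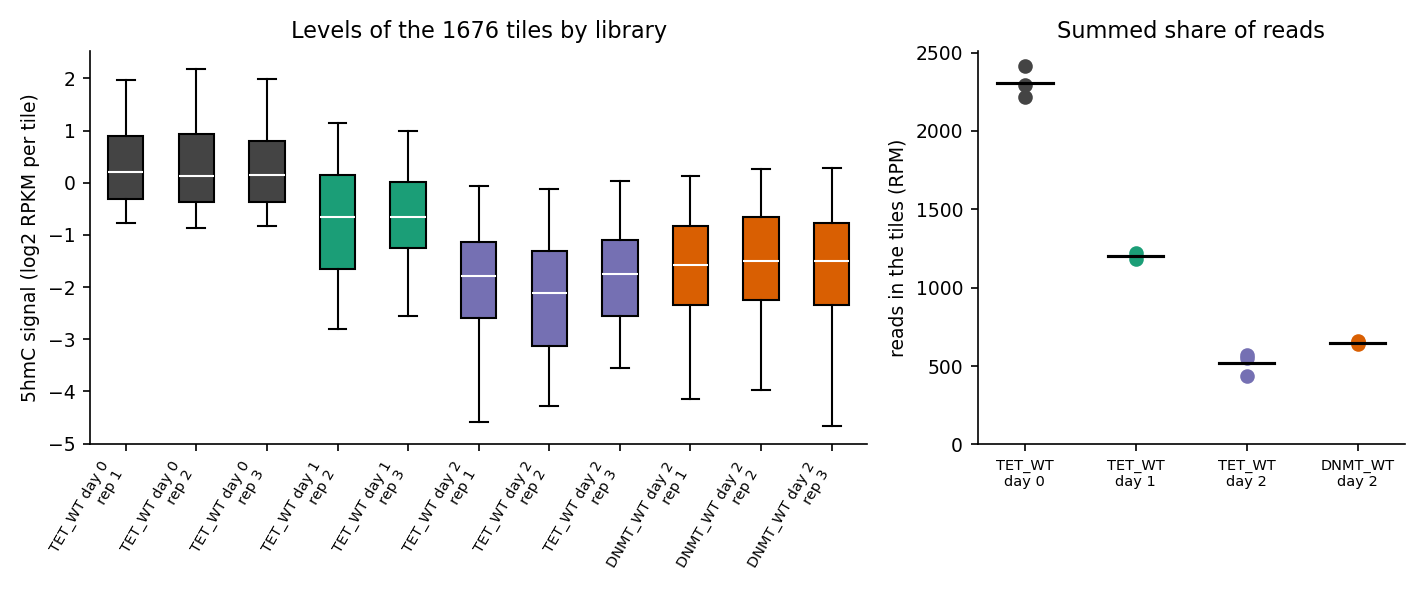
Left, log2 RPKM of the 1676 tiles in each of the 11 libraries (box, quartiles with the median in white; whiskers, 5th to 95th percentile). Right, summed reads of the tiles in RPM (points, libraries; lines, group means), which average 2308 at day 0, 1200 at day 1, 518 at TET_WT day 2 and 650 in DNMT_WT.

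The difference that chose the tiles had a median of -2.23 and reached -4.50, against a median of -0.09 in the background. Most tiles sat close to the threshold. The 3 nearest inside it differed by -2.0005 to -2.00008, and the 3 nearest outside by -1.99998 to -1.9998. Raising the threshold to 3 left 68 tiles, and asking for 0 or more log2 RPKM in each day 0 library left 660. In 1658 of the 1676 tiles every TET_WT day 2 library lay below every day 0 library. The spread between replicates grew as the signal shrank: the median SD over the libraries of a tile was 0.31 at day 0, 0.50 at day 1, 0.82 at TET_WT day 2 and 0.67 in DNMT_WT.

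The tile with the largest difference lay outside annotated genes at chr8:98628001-98630000. It held 136, 28 and 148 reads at day 0, 8 and 25 at day 1, 2, 1 and 5 at TET_WT day 2, and 17, 3 and 9 in DNMT_WT. Its reads were lowest at TET_WT day 2, 4.50 below day 0, while DNMT_WT lay 2.78 below. The next was in Chn1, which encodes the Rac GTPase-activating protein chimaerin, with 32, 20 and 44 reads at day 0, 2 and 13 at day 1, 1 in each TET_WT day 2 library and 8, 3 and 6 in DNMT_WT. That tile was 4.16 lower at TET_WT day 2 and 1.90 lower in DNMT_WT than at day 0. Of the 10 largest differences, the others named by a gene with a known product were in Dnah6, a heavy chain of the axonemal dynein motor (3.81 lower), and Trpa1, an irritant-sensing cation channel (3.60 lower). These extremes rest on a few reads at day 2.

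The tiles with the most signal at day 0 lost a similar amount on the log2 scale and are measured with many more reads. At chr9:3036001-3038000, outside annotated genes, 875, 492 and 937 reads at day 0 stood beside 61 and 246 at day 1, 144, 64 and 134 at TET_WT day 2, and 192, 91 and 105 in DNMT_WT. Its mean was 4.34 log2 RPKM at day 0, and it lay 1.01 lower at day 1, 2.02 lower at TET_WT day 2 and 1.95 lower in DNMT_WT. Repeat content was not examined, and whether the reads of this tile come from a single locus was not tested. A tile of Kcnj6, a G-protein-gated potassium channel gene, held 626, 549 and 524 reads at day 0, 54 and 143 at day 1, 118, 48 and 79 at TET_WT day 2, and 189, 60 and 117 in DNMT_WT. It lay 1.11, 2.12 and 1.72 below day 0 at TET_WT day 1, TET_WT day 2 and DNMT_WT day 2. The other 3 of the top 5 were in Eva1c and Zfp982 and are described with the DNMT_WT comparison.

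The day 1 mean lay between day 0 and day 2 in 1535 of the 1676 tiles (91.6%, against 42.9% of the background). It was at or above day 0 in 77 (4.59%, against 45.9%). In 64 (3.82%, against 15.6%) it was at or below a day 2 mean that was itself below day 0. The rule set day 0 and day 2 of these tiles 2 or more apart, so a day 1 level between them follows in part from the choice. The median difference between day 1 and day 0 was -1.01, against -0.05 in the background, and the median tile had gone 43.8% of the way to its day 2 level (quartiles 25.0% and 62.2%). Day 1 was nearer to day 0 in 999 tiles (59.6%, against 53.5% of the background) and nearer to day 2 in 677 (40.4%, against 46.5%). Both day 1 libraries lay below all day 0 libraries in 1093 tiles (65.2%), against 17.4% of the background. The day 1 mean was 1 or more below day 0 in 847 tiles (50.5%, against 5.6% of the background) and 2 or more below in 141 (8.41%, against 0.307%). These differences share the day 0 libraries with the rule, which favours tiles whose day 0 mean happened to be high. Positions relative to day 2 also share the TET_WT day 2 libraries with it. All of them are descriptions.

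The 2 day 1 libraries gave the same median in spite of unequal depth but differed in the larger falls. Replicate 2, with a median of 4 reads per tile of loss, had a median difference of -0.95 from the day 0 mean. It was below that mean in 1473 tiles and 2 or more below in 307, and 90 tiles held no reads in it. Replicate 3, with a median of 15 reads, also had -0.95. It was below the day 0 mean in 1542 tiles and 2 or more below in 161, and 3 tiles held no reads in it. In the 4789 tiles chosen without day 0 replicate 2, the median difference at day 1 was -1.15.

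DNMT_WT at day 2, whose libraries the rule did not use, was also low in nearly all of the tiles. Its differences from day 0 share the TET_WT day 0 libraries with the rule, as those of day 1 do, and the background was not chosen for a fall, so the counts that follow are descriptions and not independent of the choice. The level of DNMT_WT itself, which involves no day 0 library, had a median of -1.69 log2 RPKM in the tiles of loss, against 0.66 in the background. Its mean was below the TET_WT day 0 mean in 1667 of 1676 tiles (99.5%, against 59.8% of the background). It was 1 or more below in 1495 (89.2%, against 18.6%) and 2 or more below in 811 (48.4%, against 3.28%). All 3 DNMT_WT libraries lay below all 3 day 0 libraries in 1498 tiles (89.4%, against 30.4%). The median difference was -1.97, against -0.21 in the background. Replicates 1, 2 and 3 of DNMT_WT had medians of -1.88, -1.91 and -1.90 and were 2 or more below day 0 in 760, 775 and 787 tiles. Counts by single replicate were not taken over the background. In the tiles chosen without day 0 replicate 2, 55.0% were 2 or more below in DNMT_WT.

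DNMT_WT lay a little above TET_WT at the same day. It was higher in 1131 tiles (67.5%, against 43.1% of the background), with a median difference of 0.34. The rule asks TET_WT, not DNMT_WT, to be low, so this direction follows in part from the choice. The share of tiles 2 or more below day 0 in DNMT_WT was 41.5%, 41.5%, 50.6% and 59.9% in 4 equal groups of 419 tiles, taken in order from the lowest to the highest day 0 mean. At day 1 the corresponding medians were -0.94, -0.95, -0.95 and -1.11. Such groups were not formed over the background, so whether the rise is particular to the tiles of loss was not tested.

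**Figure D2:**
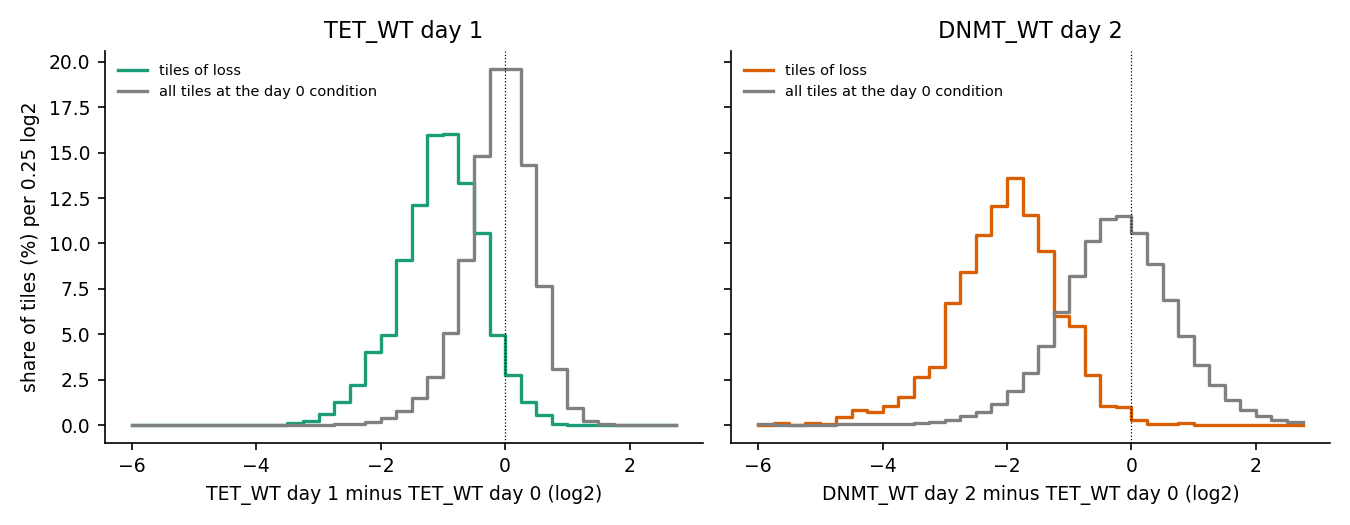
Share of tiles per 0.25 log2 by their difference from the TET_WT day 0 mean, at TET_WT day 1 (left) and in DNMT_WT at day 2 (right), for the 1676 tiles of loss (coloured) and all 408106 tiles at the day 0 condition (grey). The medians of the tiles of loss are -1.01 and -1.97, against -0.05 and -0.21 for the background.

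DNMT_WT day 2 against TET_WT day 1 is the 1 contrast in which neither group was used by the rule. It was tested with limma on all 1183891 tiles that passed a filter on low and high values. That independence holds for the difference only. All 11 libraries were in 1 fit, so standard errors, p-values and calls also draw on the spread of the libraries that the rule used. All 1676 tiles of loss passed. The difference was negative in 1424 (85.0%, against 56.6% of the tested background). Its median was -0.94, against -0.13 over the background and -0.42 over all tiles tested. At an adjusted p under 0.05 (Benjamini-Hochberg over all tiles tested), 290 tiles of loss (17.3%) were lower in DNMT_WT and 4 (0.239%) were higher. Over all tiles tested, 5.5% were called lower and 5.32% higher, and 11.9% of the tested tiles at the day 0 condition were called lower. Without adjustment, 621 tiles of loss (37.1%) were lower at a limma p under 0.05. In either direction, 281344 of all 1183891 tested tiles were under it. Lower tiles alone were not counted over the background at that p, so the 37.1% has no matching share. All DNMT_WT libraries lay below both day 1 libraries in 784 tiles of loss (46.8%, against 28.3% of the background). The contrast changes day and line together. A fit of these 2 groups alone called 201 tiles of loss lower, and 35195 of the 406790 tested background tiles. With every library thinned to the reads of the shallowest, 27 tiles of loss (1.61%) were called lower, against 1.54% of the tested background. At that depth the share of calls thus did not stand apart, while the median difference was -0.80, against -0.14 over the background. Leaving out day 1 replicate 2, the shallowest library, took the calls to 135 (8.05%, against 6.43%).

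The clearest of these calls were in Eva1c, a gene for a heparin-binding membrane protein that also acts as a Slit receptor. The tile at chr16:90876001-90878000 held 684, 559 and 568 reads at day 0, 44 and 185 at day 1, 86, 56 and 73 at TET_WT day 2, and 38, 9 and 17 in DNMT_WT. DNMT_WT was lowest of all, 3.27 ± 0.23 (SE) log2 below day 1 (limma, adjusted p = 3.47e-27). Its neighbour at chr16:90874001-90876000 held 651, 493 and 490 reads at day 0, 33 and 164 at day 1, 92, 43 and 82 at TET_WT day 2, and 39, 17 and 36 in DNMT_WT, which was 2.29 ± 0.23 below day 1 (limma, adjusted p = 2.15e-16). In both tiles the DNMT_WT libraries lay below every TET_WT library. An intergenic tile at chr6:137004001-137006000 had 192, 106 and 219 reads at day 0, 19 and 56 at day 1, 21, 19 and 29 at TET_WT day 2, and 6, 0 and 14 in DNMT_WT, 3.89 ± 0.43 below day 1 (limma, adjusted p = 2.15e-13). A tile of Mpzl2, an epithelial adhesion gene, had 235, 164 and 182 reads at day 0, 22 and 57 at day 1, 25, 26 and 33 at TET_WT day 2, and 17, 6 and 22 in DNMT_WT, 2.37 ± 0.34 below day 1 (limma, adjusted p = 6.32e-09). These 4 tiles and 2 of Zfp982, described with its run, kept their calls under every alternative tried. Of the 29 named tiles with a call, these 6 alone kept it at equal depth.

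Of the 4 tiles called higher in DNMT_WT than at day 1, 2 were outside annotated genes. Their calls sit near the threshold, and each was lost when any 1 of 4 libraries was left out. At chr8:34656001-34658000 there were 36, 14 and 36 reads at day 0, 1 and 18 at day 1, 8, 1 and 5 at TET_WT day 2, and 46, 16 and 41 in DNMT_WT (1.94 ± 0.66 above day 1, limma, adjusted p = 0.0400). Without day 1 replicate 2 the difference was 0.80 (adjusted p = 0.632). Without DNMT_WT replicates 1, 2 and 3 it was 1.96, 2.05 and 1.80, about as large as with all libraries, with limma adjusted p of 0.105, 0.0714 and 0.143. At chr4:15238001-15240000 there were 50, 30 and 41 reads at day 0, 4 and 14 at day 1, 9, 1 and 9 at TET_WT day 2, and 36, 44 and 51 in DNMT_WT (1.59 ± 0.55 above day 1, limma, adjusted p = 0.0421). The difference remained positive without day 1 replicates 2 and 3, at 1.64 and 1.54 (limma, adjusted p = 0.142 and 0.137), and without DNMT_WT replicates 2 and 3, at 1.22 and 1.53 (limma, adjusted p = 0.245 and 0.126). These 2 tiles are among the 9 tiles of loss (0.537%, against 40.2% of the background) in which DNMT_WT was at or above the TET_WT day 0 mean.

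The tiles of loss were less often genic than the background that they came from. A protein-coding gene covered 655 of them (39.1%), against 57.8% of the tiles at the day 0 condition and 41.3% of all autosomal tiles. Another annotated gene only, mostly a long noncoding RNA or a pseudogene, covered 207 (12.4%, against 9.62%), and 814 (48.6%, against 32.5%) lay outside annotated genes. The genic share of the tiles of loss was thus closer to that of all autosomal tiles than to that of the tiles at the day 0 condition. Tiles outside protein-coding genes lay a median of 52.7 kb from the nearest one, against 31.8 kb for the background. The classes did not stand apart in how much was lost: the median difference in DNMT_WT was -1.97 within protein-coding genes, -2.04 in other genes and -1.96 outside, and at day 1 it was -1.04, -1.02 and -0.97. Without day 0 replicate 2, 45.9% of the 4789 tiles were in a protein-coding gene, against 57.5% of the matching background.

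By chromosome, the tiles of loss ran from 2.52 per 1000 tiles at the day 0 condition on chromosome 8 to 6.67 on chromosome 16, with 4.11 over all autosomes. Chromosome 6 had 6.05 and chromosome 13 had 5.29. The X chromosome was left out by the rule. There, 52 of 4400 tiles met the same levels (11.8 per 1000).

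**Figure D3:**
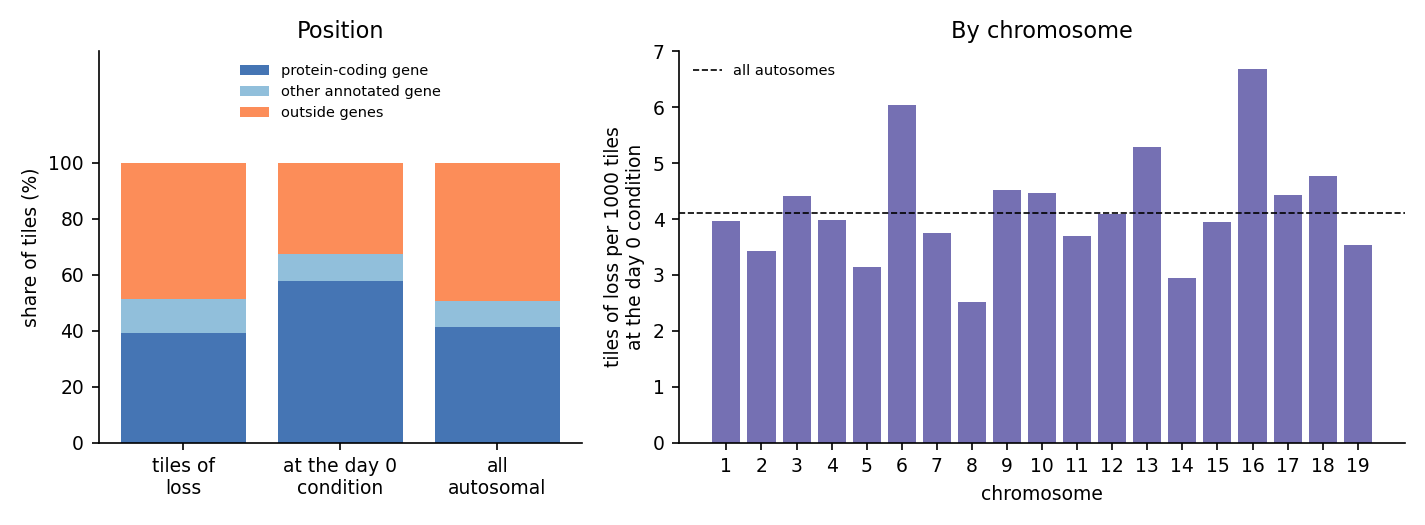
Left, share of the 1676 tiles of loss, of the tiles at the day 0 condition and of all autosomal tiles that lie in a protein-coding gene (39.1%, 57.8% and 41.3%), in another annotated gene only, or outside genes. Right, tiles of loss per 1000 tiles at the day 0 condition on each autosome, with the value over all autosomes (4.11) as a dashed line.

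Most of the tiles of loss stood alone, and a neighbour of one was more often another tile of loss than a background tile was. Single tiles made up 1525 of the 1676, and 151 (9.01%) stood in runs of adjacent tiles, of which 67 held 2, 3 held 3 and 2 held 4. Of the neighbouring tiles, 1799 met the day 0 condition, and 158 of these (8.78%) were tiles of loss themselves, against 0.411% of all tiles at that condition. Adjacent tiles can share fragments, since sonicated DNA spans a tile border. Within 10 kb, 300 tiles (17.9%) had another tile of loss, within 50 kb 30.1% and within 100 kb 39.2%, while the median gap to the next on the chromosome was 694 kb. In the tiles chosen without day 0 replicate 2, 24.6% had another within 10 kb.

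The fall was largest at the tile but not confined to it. In the tiles 2 kb to either side, leaving out other tiles of loss, the median difference from day 0 was -0.78 and -0.81 at TET_WT day 2 and -0.91 and -0.93 in DNMT_WT. At 20 kb it was -0.26 and -0.31 at TET_WT day 2, and -0.43 and -0.51 in DNMT_WT. The day 0 level peaked at the tile, at 0.12, against -0.40 and -0.37 in its immediate neighbours. At day 1 the median level of -0.73 was close to that of the neighbours, -0.76 on both sides. At TET_WT day 2 the tile, at -2.17, lay below its neighbours, at -1.12 and -1.17. A day 0 peak and a day 2 trough at the tile itself follow from the rule. Levels at day 1 and in DNMT_WT were not used by it. Neighbours that met the rule were left out, with 1597 kept on each side at 2 kb. The neighbours' day 0 and TET_WT day 2 values are therefore also limited by the rule.

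**Figure D4:**
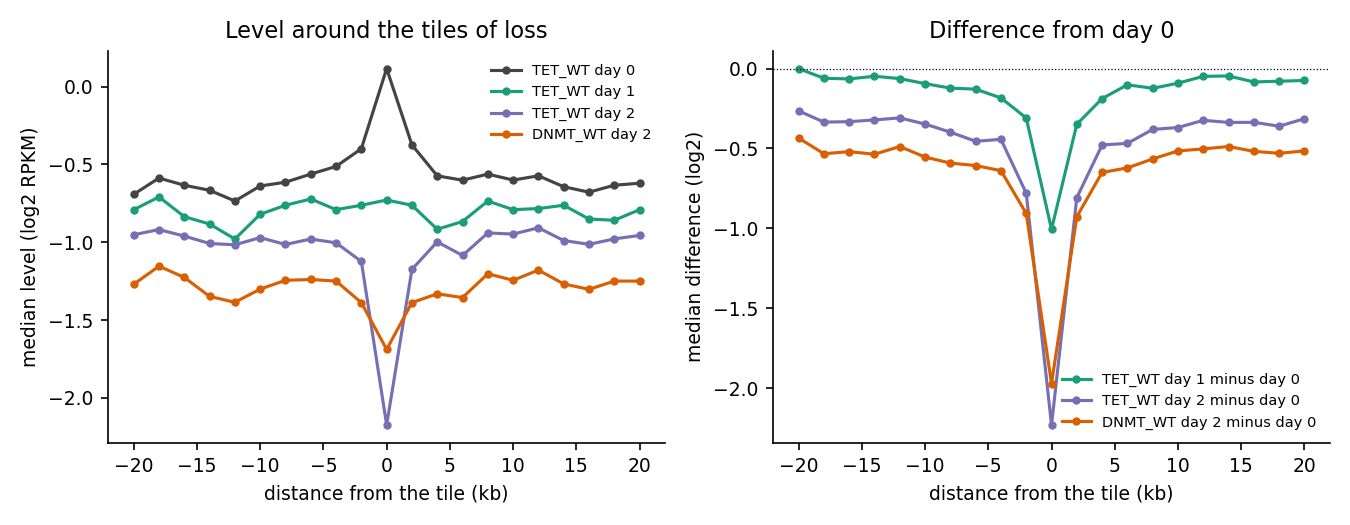
Median log2 RPKM by group (left) and median difference from TET_WT day 0 (right) by distance in kb from the tile of loss, with other tiles of loss left out beyond distance 0. At 2 kb the difference at TET_WT day 2 is -0.78 and -0.81, and it is -0.26 and -0.31 at 20 kb.

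The densest windows of 1 Mb held 12 tiles of loss each, on chromosome 17 (chr17:50000001-51000000, of 257 tiles at the day 0 condition) and chromosome 9 (chr9:116000001-117000000, of 288). The first of them covers most of Rftn1, which encodes raftlin, a lipid raft protein known from B cells, and Plcl2, which encodes a phospholipase C-like protein without catalytic activity. Rftn1 held 6 tiles of loss and Plcl2 held 4.

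The longest run with the most signal lay in Zfp982, a zinc finger gene, at chr4:147466001-147474000. Its 4 tiles had mean levels of 3.37, -0.39, 2.03 and 3.98 log2 RPKM at day 0, 2.51, -0.62, 0.49 and 2.81 at day 1, 1.35, -3.09, -0.07 and 1.91 at TET_WT day 2, and 0.89, -2.55, -0.91 and 1.34 in DNMT_WT. The strongest of them held 641, 493 and 602 reads at day 0, 43 and 170 at day 1, 92, 57 and 101 at TET_WT day 2, and 81, 39 and 66 in DNMT_WT, and it was 1.47 ± 0.20 lower in DNMT_WT than at day 1 (limma, adjusted p = 7.12e-10). The tile at 147466001 was also lower there (1.62 ± 0.23, limma, adjusted p = 6.53e-09), as was the one at 147470001 (1.41 ± 0.39, limma, adjusted p = 0.00641, and 0.0712 without day 1 replicate 3). The gene held 1 more tile of loss nearby. Zfp982 belongs to a cluster of similar zinc finger genes on chromosome 4, and reads may be shared between copies, so the assignment to this copy is uncertain.

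The other run of 4 lay in Usp24, a ubiquitin-specific protease gene, at chr4:106390001-106398000, and its tiles differed among themselves in DNMT_WT. They lay 2.06, 3.12, 2.23 and 2.29 below day 0 at TET_WT day 2, and 0.56, 3.09, 3.10 and 1.82 below it in DNMT_WT. The first tile held 98, 53 and 76 reads at day 0, 6 and 13 at day 1, 14, 8 and 10 at TET_WT day 2, and 40, 20 and 41 in DNMT_WT. The second held 122, 83 and 133 at day 0, 7 and 37 at day 1, 12, 5 and 7 at TET_WT day 2, and 24, 2 and 12 in DNMT_WT, and it was 1.89 ± 0.51 lower there than at day 1 (limma, adjusted p = 0.00471, against 0.0850 without day 1 replicate 3 and 0.0973 without DNMT_WT replicate 2). The first was 0.92 ± 0.44 above day 1 (limma, adjusted p = 0.174). Of the runs of 3, the one with the largest summed difference was outside annotated genes at chr18:36888001-36894000, with tiles 2.72, 2.14 and 2.42 below day 0 at TET_WT day 2 and 2.33, 2.84 and 1.87 below in DNMT_WT.

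At least 1 tile of loss lay in 498 of the 20661 autosomal protein-coding genes (2.41%). Of these, 394 held 1 tile, 70 held 2 and 34 held 3 or more. Genes with a tile were long, with a median of 135 kb, against 22.8 kb for genes with any tile at the day 0 condition, and they held a median of 32 such tiles, against 7. The 10 genes with the most tiles were Kcnip4, Adcy2, Robo1 and Rftn1 (6 each), Dgki and Zfp982 (5 each), and Chn1, Tnik, Usp24 and Phactr2 (4 each). Kcnip4 is a subunit of voltage-gated potassium channels, Adcy2 an adenylate cyclase, Robo1 a Slit receptor of axon guidance, Dgki a diacylglycerol kinase, Tnik a kinase of the Wnt and JNK pathways and Phactr2 a regulator of actin and a protein phosphatase.

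Kcnip4 held 6 tiles of loss among 32 tiles at the day 0 condition in a gene of 569 tiles. The tile of Kcnip4 with the most reads, chr5:48620001-48622000, had 181, 22 and 139 reads at day 0, 4 and 31 at day 1, 10, 7 and 7 at TET_WT day 2, and 8, 2 and 9 in DNMT_WT, 2.03 ± 0.58 below day 1 (limma, adjusted p = 0.0101, against 0.216 without day 1 replicate 3 and 0.0507 without DNMT_WT replicate 2). Day 0 replicate 2 was well below the other 2 libraries in it. Over the 6 tiles the mean difference from day 0 was -1.48 at day 1, -2.65 at TET_WT day 2 and -2.29 in DNMT_WT. Across the gene, the median of its tiles at the day 0 condition was -1.39 at TET_WT day 2, so lower signal was not limited to the 6 tiles.

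Adcy2 held 6 tiles of loss, 5 of them between 68628001 and 68650000, among 35 tiles at the day 0 condition. Its tile at chr13:68640001-68642000 had 78, 61 and 63 reads at day 0, 4 and 27 at day 1, 6, 7 and 3 at TET_WT day 2, and 5, 1 and 2 in DNMT_WT. In that tile DNMT_WT was 3.21 ± 0.72 below day 1 (limma, adjusted p = 0.000509). The mean differences over the 6 tiles were -1.05 at day 1, -2.34 at TET_WT day 2 and -2.29 in DNMT_WT.

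Robo1 held its 6 tiles among 139 at the day 0 condition, and Rftn1 its 6 among 96. In Robo1 the mean differences were -1.02 at day 1, -2.32 at TET_WT day 2 and -2.37 in DNMT_WT. The median over all Robo1 tiles at the day 0 condition was -0.73 at TET_WT day 2. In Rftn1 the mean differences of the 6 tiles were -1.17, -2.19 and -2.13 at the same stages, and the median over all its tiles at the condition was -1.26. One Rftn1 tile, chr17:50066001-50068000, had 149, 108 and 168 reads at day 0, 12 and 53 at day 1, 21, 16 and 21 at TET_WT day 2, and 32, 12 and 24 in DNMT_WT, 1.21 ± 0.35 below day 1 (limma, adjusted p = 0.0112, and 0.0915 without day 1 replicate 3). In Usp24 and Chn1 the median tile at the condition differed by -0.22 and -0.27, far less than the tiles of loss in them.

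Few genes of the lists held a tile of loss. The lists held 16 to 30 genes each and were set by name, and a gene counts as hit when it overlaps a tile of loss. Counts are over the autosomal genes with a tile at the day 0 condition. In the naive pluripotency list, 1 of 11 such genes was hit, Tfcp2l1, a transcription factor of the 2i/Lif state, and in the formative and primed list 1 of 17, Cdh2, which encodes N-cadherin. The lists of DNA methylation machinery (17 such genes), hematopoietic (28), mesoderm and primitive streak (19), neural (16), germline (20), housekeeping (12), and fibroblast and feeder genes (14) had none. Of all autosomal protein-coding genes with such a tile, 498 of 16911 were hit.

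The Tfcp2l1 tile at chr1:118666001-118668000 had 27, 32 and 25 reads at day 0, 3 and 17 at day 1, 1, 4 and 12 at TET_WT day 2, and 14, 6 and 2 in DNMT_WT. Its libraries scatter widely at day 2, and the difference of -1.31 ± 0.80 between DNMT_WT and day 1 was not called (limma, adjusted p = 0.322). It was 1 of 15 Tfcp2l1 tiles at the day 0 condition, whose median at TET_WT day 2 was -0.12. The Cdh2 tile at chr18:16608001-16610000 had 122, 72 and 48 reads at day 0, 7 and 20 at day 1, 6, 8 and 14 at TET_WT day 2, and 34, 4 and 10 in DNMT_WT, and the one at chr18:16648001-16650000 was 2.01 below day 0 at TET_WT day 2 and 1.92 below in DNMT_WT.

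Imprinted genes were hit in 3 of 23 cases, Snrpn, Peg3 and Peg10, all expressed from the paternal allele, with 4 tiles of loss among 302 at the day 0 condition (13.2 per 1000, against 4.11 over all autosomes). The Snrpn tile, which also holds the start of the overlapping Snurf and whose promoter window is printed above, had 62, 54 and 56 reads at day 0, 8 and 19 at day 1, 7, 3 and 8 at TET_WT day 2, and 3, 5 and 2 in DNMT_WT. In log2 RPKM the day 0 libraries lay at 0.48, 1.07 and 0.40, the day 1 libraries at 0.34 and -0.32, TET_WT day 2 at -1.79, -2.54 and -1.56, and DNMT_WT at -3.57, -1.50 and -3.67. Both day 1 libraries lay above all 6 day 2 libraries, and replicate 2 came close to the day 0 range. DNMT_WT was 2.93 ± 0.69 below day 1 (limma, adjusted p = 0.000917, and 0.0617 without day 1 replicate 2).

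Peg3, which encodes a zinc finger protein, held 2 adjacent tiles at chr7:6726001-6730000, next to the tile with its start. The tile nearer the start had 79, 77 and 60 reads at day 0, 12 and 12 at day 1, 17, 5 and 10 at TET_WT day 2, and 10, 4 and 4 in DNMT_WT, 2.08 ± 0.57 below day 1 (limma, adjusted p = 0.00601, and 0.431 without day 1 replicate 2). The other had 35, 15 and 22 reads at day 0, 6 and 17 at day 1, 5, 1 and 4 at TET_WT day 2, and 8, 4 and 2 in DNMT_WT. The start tile of Peg3 did not meet the rule but lay 0.34 below day 0 at day 1, 1.71 below at TET_WT day 2 and 1.73 below in DNMT_WT. Peg10, a retrotransposon-derived gene needed in the placenta, had 119, 70 and 74 reads at day 0, 2 and 27 at day 1, 5, 7 and 13 at TET_WT day 2, and 46, 20 and 26 in DNMT_WT in its tile at chr6:4748001-4750000. In it DNMT_WT lay 0.92 below day 0, TET_WT day 2 lay 2.70 below, and the groups of day 2 did not overlap.

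**Figure D5:**
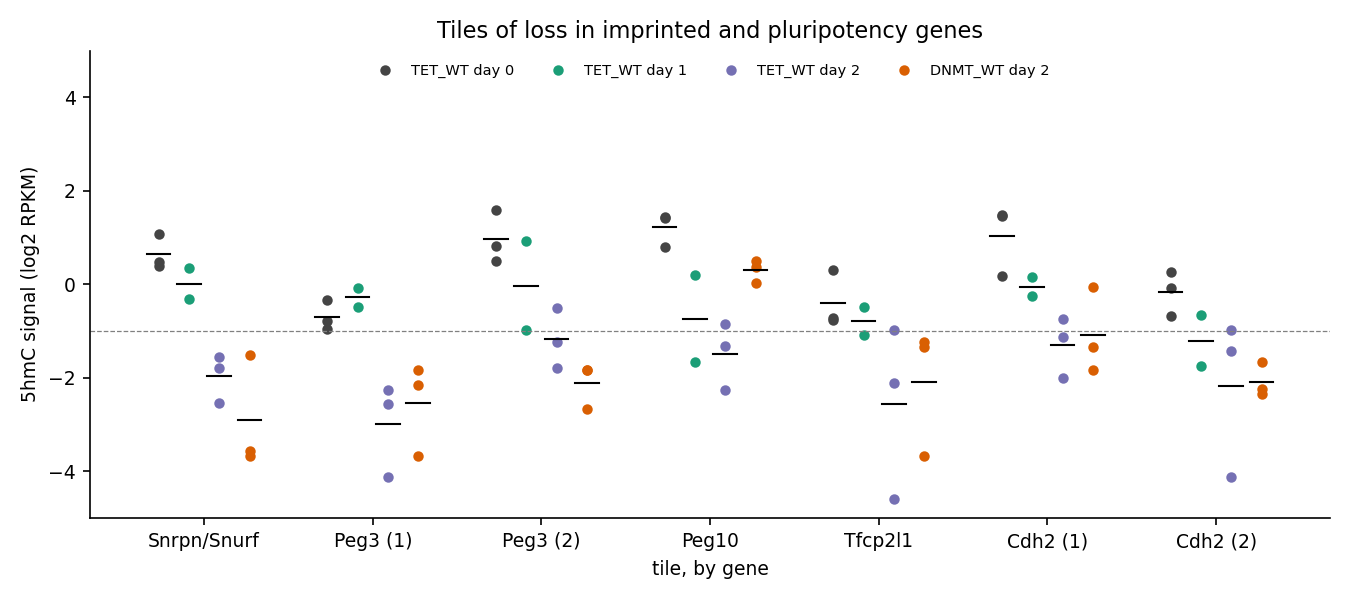
Log2 RPKM in each library (points; bars, group means) of the 7 tiles of loss in genes of the imprinted and pluripotency lists, by group from TET_WT day 0 to DNMT_WT day 2. The dashed line marks the day 0 minimum of -1. In the Peg10 tile all DNMT_WT libraries stand above those of TET_WT day 2, and in the Snrpn and Peg3 tiles the ranges of both overlap or DNMT_WT is lower.

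Other imprinted starts with day 0 signal did not follow 1 pattern. At the CG-rich start tile of Mest (chr6:30738001-30740000) the difference from day 0 was -0.58 at day 1, -1.07 at TET_WT day 2 and -4.01 in DNMT_WT. At the start of Kcnq1ot1, the noncoding RNA of its imprinted domain, it was -0.96, -1.11 and -1.59. At Nnat it was -1.26, -1.15 and -0.07, and at Plagl1 it was -0.83, 0.03 and 1.27. Set against TET_WT day 2, DNMT_WT was thus lower at Mest and higher at Plagl1, a difference between lines that was not tested.

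Of 8 genes that had lost signal as whole genes in an earlier analysis of the same libraries, Pramel6 and Lama1 held 1 tile of loss each. Pramel6 belongs to a family of PRAME-like genes active in early embryos, and its tile at chr2:87508001-87510000 had 89, 14 and 92 reads at day 0, 4 and 28 at day 1, 2, 3 and 5 at TET_WT day 2, and 6, 3 and 12 in DNMT_WT. Day 0 replicate 2 was low there, and the family has near-identical copies. The tile of Lama1, a laminin chain of basement membranes, had 63, 14 and 25 reads at day 0, 6 and 24 at day 1, 7, 4 and 2 at TET_WT day 2, and 13, 5 and 5 in DNMT_WT. It was 1 of 60 Lama1 tiles at the day 0 condition. Runx1 (102 such tiles), Igf2r (40), Pf4 and Utf1 (1 each) had none among the tiles of loss. Pramel14 had no tile at the condition, and Asmt lies on the X chromosome. By family, and among genes with a tile at the day 0 condition, tiles of loss lay in 3 of 116 olfactory receptor genes, 2 of 31 vomeronasal receptor genes, 12 of 339 genes named Zfp, 8 of 363 Slc genes and 3 of 77 Cyp genes, against 498 of all 16911 such genes. They lay in none of the 74 Krt, 56 Pcdh and 36 Hox genes.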

How the data were processed

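The authors trimmed and aligned reads with Trim Galore 0.6.5, cutadapt 2.3 and Bowtie2 2.4.1 to GRCm38, per the submitters' processing notes, and deposited log2 RPKM values for 1362779 tiles of 2 kb. The counting tool is not given in the sources used here. Within each library the deposited log2 values step by whole reads (within 0.1%), and tiles without reads hold the value of 0.9 reads. Read numbers were recovered from these steps. Their sum is 2.32 times the total by which the authors' RPKM was scaled, in all 11 libraries. The cause is unknown, and it moves every tile of a library equally.

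The rule was applied to chromosomes 1 to 19. Tiles were placed in genes by overlap with the RefSeq gene table for GRCm38.p6, and promoter windows by the transcription start. Repeat content was not examined, because no genome was used. The 1183891 tested tiles are those on chromosomes 1 to 19 and X without the 10% lowest and 0.1% highest by mean. The test was limma 3.58.1 in R 4.3.3 (lmFit, eBayes with a variance trend), all 11 libraries in 1 fit, two-sided. Python 3.11.15 with numpy 2.4.6, pandas 2.3.3 and matplotlib 3.10.9 did the rest.

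The tiles, gene lists and rules were chosen with earlier results of these data known. Tiles were named as the 10 largest falls, the 5 highest at day 0, the 5 smallest p-values and 5 largest positive differences of DNMT_WT minus day 1, the 5 highest in DNMT_WT relative to day 0, the 3 longest runs, and those nearest the threshold. Genes were named as the 10 with the most tiles, every list gene with one, and 8 genes from the earlier results. The tiles shown within those genes, the 4 sequences, the tiles called higher and the imprinted starts without a tile of loss were picked after their values were seen. Results for 1 gene and the list that holds it are not reported here. Alternatives left out each library in turn and changed the scaling, the filter, depth, the value of empty tiles, the thresholds, the samples in the fit, the variance prior and the test (limma voom on recovered reads), or added the replicate number as a block.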

Additional observations from a re-analysis of the deposited data

How the results depend on the processing

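The count of tiles called lower in DNMT_WT day 2 than at TET_WT day 1, 290 of 1676 (17.3%, against 11.9% of the tested background), changed when single libraries were left out. It ran from 135 without day 1 replicate 2 (8.05%, against 6.43%) to 322 without TET_WT day 2 replicate 2 (19.2%, against 11.3%). It was 27 at equal depth (1.61%, against 1.54%), 79 without a variance trend (4.71%, against 1.82%) and 193 with voom (11.5%, against 7.53%). Median centring of the libraries gave 224 (13.4%, against 7.54%). It moved the median over all tested tiles to -0.25, against -0.42 as reported. It also moved the share of calls that were lower over all tiles to 34.5%, against 50.8%. The test of the 2 groups alone gave 201. Replicate numbers did not pair the libraries: correlations of deviations between same-numbered libraries ran from -0.098 to 0.104. With the replicate block the count was 284 (16.9%, against 11.2% of the tested background). For single named tiles, 814 of 972 values kept direction and side of the threshold, 136 fell short of it, 16 passed it and 6 changed sign. The sign changes were at chr1:14904001 (0.000106 at equal depth), chr10:84744001 (0.15 at equal depth, and -1.12 to 0.59 when single libraries were left out, 0.59 without day 1 replicate 3 and 0.16 without DNMT_WT replicate 3) and chr11:118874001 (-0.0139 with the replicate block, and -0.43, without day 1 replicate 3, to 0.93), and none of these 3 was called. The cause of these shifts was not tested.

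The number of tiles meeting the rule was 4789 without day 0 replicate 2, 2570 without TET_WT day 2 replicate 3 and 1752 to 2472 without each of the others that the rule uses. The count does not say which tiles: without TET_WT day 2 replicate 2 it was 1752, but 1039 of the 1676 (62.0%) were among them, the smallest overlap for a left-out library, against 79.5% to 88.3% for the others of the rule. It was 1814 with median centring, 1266 with 0.5 reads added to every tile and 2181 with libraries thinned to 20223129 reads, the depth of the shallowest that the rule uses, while equal depth in the test above is 7342012 reads. Over all these sets, and the stricter thresholds, the share in a protein-coding gene stayed between 37.4% and 45.9%, the median day 1 difference between -0.90 and -1.31, and the share 2 or more below day 0 in DNMT_WT between 40.5% and 67.6%. The share with another tile of loss within 10 kb was 2.94% at a fall of 3 or more and 15.8% to 24.6% otherwise. At a median of 4 to 7 reads per tile at TET_WT day 2, the size of a single tile's loss is bounded by counting error.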
